A study of Mus musculus with 3 samples.

Results

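The genes described here are 10 members of the Notch pathway, which were the receptors Notch1, Notch2 and Notch3, the ligands Jag1 and Dll1, and the target genes Hes1, Hes5, Hey1, Hey2 and Heyl. They were chosen by symbol from the array's annotation, using the probe sets that carry exactly 1 gene symbol, and make up 10 of 22180 named genes. Hes5 and Dll1 each had 2 probe sets, whose mean was used, and the other 8 genes had 1 each. Gene expression was compared across 3 cell types, with 1 Affymetrix Mouse Gene 2.0 ST array each. Mouse embryonic fibroblasts (MEFs) came from E13.5 embryos. The induced astrocytes (iAs) were MEFs from GFAP-GFP reporter mice that had been cultured for 25 days with VCSTO, which stands for the histone deacetylase inhibitor valproic acid, the GSK3 inhibitor CHIR99021, the TGF-beta receptor inhibitor SB-431542, the LSD1 inhibitor tranylcypromine and the Oct4-activating compound OAC1, and then sorted for GFP. In these mice the GFAP promoter drives GFP, so the sort selected cells by the activity of an astrocyte gene. Primary astrocytes (pAs) were isolated from mouse cortex at P2. The treatment label names VCSTO on all 3 samples. Only the iAs were taken as treated, which follows the study's methods. How many animals or cultures stood behind an array was not given in the sources used here.

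Notch receptors are membrane proteins that bind ligands of the Jagged and Delta-like families on a neighbouring cell. Binding exposes the receptor to cleavage by Adam10 and then by gamma-secretase, and the released intracellular part enters the nucleus, where it joins the DNA-binding protein Rbpj and a coactivator of the Mastermind family. Hes and Hey genes, which encode basic helix-loop-helix repressors, are the best-known targets, and in the developing brain Notch signalling is known for keeping neural progenitors from becoming neurons and for favouring glial fates.

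Promoter windows from RefSeq (build GRCm38.p6), each 300 bases long with 250 bases before the start site, matched 7 of the 10 genes, in 8 windows since Dll1 had 2. Hes1, Hey1 and Heyl were not matched. The Rbpj motif searched was GTGGGAA, on both strands. It was found in the windows of Hes5 and Hey2, each with 1 match on each strand, and in none of the other 6 windows. These 2 promoters are printed because they carry the motif in both orientations. In the lines below the sequence runs to 3 bases past the start site, with the motif in capitals, written TTCCCAC where it lies on the other strand.
Hes5 (chr4:154960673-154960925, plus strand): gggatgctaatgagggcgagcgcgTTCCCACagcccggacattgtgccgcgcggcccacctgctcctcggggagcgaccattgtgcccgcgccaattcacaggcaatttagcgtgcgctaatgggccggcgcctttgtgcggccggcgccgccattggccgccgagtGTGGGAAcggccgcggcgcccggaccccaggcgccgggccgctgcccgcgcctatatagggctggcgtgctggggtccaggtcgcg
Hey2 (chr10:30842781-30843033, minus strand): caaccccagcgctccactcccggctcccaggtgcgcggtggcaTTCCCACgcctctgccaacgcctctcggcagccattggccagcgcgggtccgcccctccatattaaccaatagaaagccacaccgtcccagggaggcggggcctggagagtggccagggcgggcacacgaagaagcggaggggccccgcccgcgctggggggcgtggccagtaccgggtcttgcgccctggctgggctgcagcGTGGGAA

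Counted from the start site as base 1, the matches lay at -226 to -220 and -83 to -77 in Hes5 and at -207 to -201 and -4 to 3 in Hey2. Of 32851 mouse promoter windows of the same length, 6.38% held GTGGGAA at least once and 33 windows, or 0.1%, held it on both strands. The shorter core TGGGAA, which lies inside GTGGGAA, was present in 25.6% of all windows, and among these genes it had no match outside the same 4 sites. CACNAG, the N box that Hes repressors bind, was present in 42.5% of all windows. It had 3 matches in Notch1, 2 in Notch3, 1 in Notch2 and 1 in 1 of the 2 Dll1 windows. CACGTG, an E box, was present in 7.15% of all windows and in none of the 8. A match describes the letters of a window and does not show that a factor binds there.

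The deposited values are log2 signals normalized by RMA, and the array medians were 6.59 for iAs, 6.57 for pAs and 6.53 for MEFs. None of the 10 genes had a level below these medians. There are no replicates, so no difference below carries a test or an error, and a gene was called higher or lower when 2 arrays differed by at least 1.5-fold, which is 0.58 on the log2 scale. Both comparisons with MEFs use the same MEF array. Each array holds the RNA of a cell population, which was sorted for GFP in the iAs alone, and within it fewer cells of a type and less RNA per cell cannot be told apart. Where the dimmer of a pair of levels fell under the median of its array, the fold starts at that median and is given as a minimum ("at least"), while genes were called and counted on the deposited values.

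The cell labels were checked against marker genes. Of 12 astrocyte markers, 10 were higher in pAs than in MEFs and 0 lower, with a summed linear signal of 47153 in pAs, 7164 in MEFs and 8805 in iAs. In iAs 2 of the 12 were higher than in MEFs, namely Gfap, whose promoter drives the reporter used in the sort, and S100b, and 5 were lower, of which Aqp4 was at least 1.16-fold lower when counted from the median. The defining markers Aqp4, Slc1a2 and Slc1a3 lay below the array's median in iAs, so the iA label rests here on Gfap and S100b. Of 12 fibroblast markers, 10 in iAs and 11 in pAs were below MEFs, at summed signals of 15482, 4796 and 46099, and none of them lay below the median in MEFs. Markers of pericytes and smooth muscle summed to 9789 in iAs, 14922 in pAs and 28157 in MEFs, and those of endothelium to 1319, 1066 and 1346.

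In iAs, 3 of the 10 genes were higher than in MEFs, which were Notch1, Jag1 and Hey2, and 0 were lower. Among all named genes 8.84% were higher and 10% lower. In pAs, Notch1, Notch2 and Hey1 were higher than in MEFs and Jag1, Hes1 and Heyl were lower, 3 in each direction, where all named genes gave 12% higher and 11% lower. Set directly against pAs, iAs had 4 of the genes higher (Jag1, Hes1, Hey2 and Heyl) and 3 lower (Notch2, Notch3 and Hey1), where all named genes gave 8.67% higher and 11.1% lower. Since the 10 genes lay above the medians, a second background was taken, and among the 14476 named genes that reached the median on at least 1 array 27.4% were called between iAs and MEFs, 33.7% between pAs and MEFs and 28.7% between iAs and pAs. The median difference of the 10 genes was 0.02 for iAs minus MEFs, 0.26 for pAs minus MEFs and -0.05 for iAs minus pAs on the log2 scale, and that of all named genes was 0 in each comparison. The genes therefore did not shift one way as a group, and they are described singly.

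**Figure D1:**
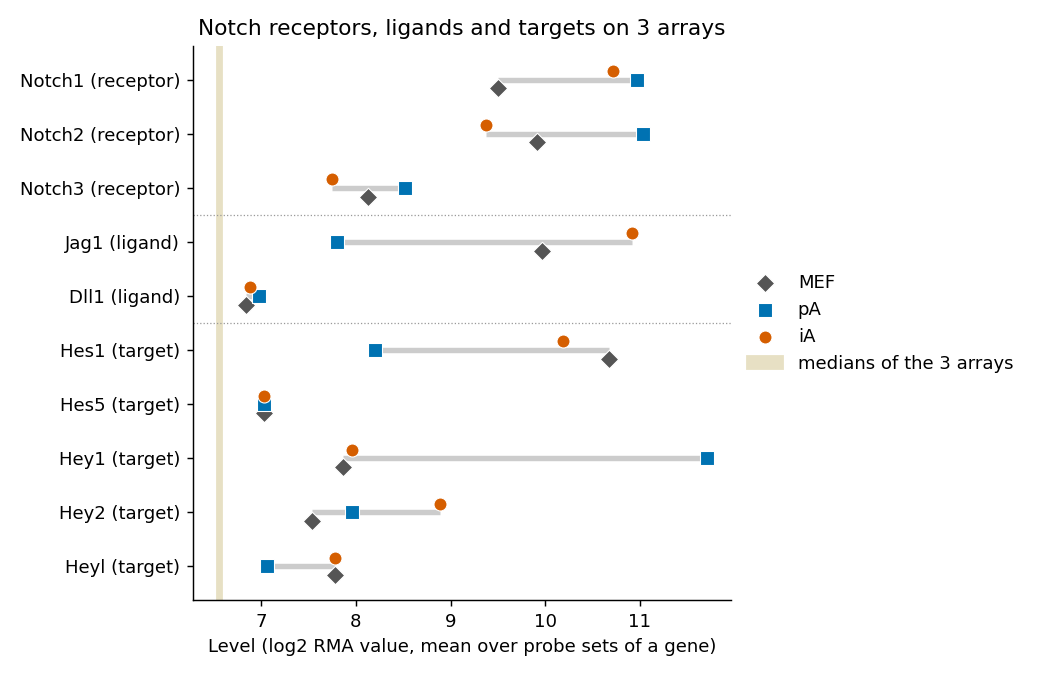
Log2 level (x axis, RMA values) of each of the 10 genes (y axis) on the single iA, pA and MEF arrays, with a grey line from the lowest to the highest array and a band at the 3 array medians. Hey1 stands apart in pAs at 11.71, Jag1 and Hes1 are lowest in pAs, and the 3 points of Hes5 coincide at 7.03.

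Among the receptors, Notch1, which is broadly expressed in neural progenitors, measured 10.71 on the log2 scale in iAs, 10.97 in pAs and 9.50 in MEFs. Relative to MEFs it was 2.33-fold higher in iAs, and 2.78-fold in pAs, and the iA and pA arrays lay within 1.20-fold of each other. Of the 22180 named genes, 808 were higher in iAs than in MEFs by at least as much as Notch1, and 854 in pAs.

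Notch2 was at 9.37 in iAs, 11.04 in pAs and 9.92 in MEFs. The pA array was the high one, 2.18-fold above MEFs and 3.18-fold above iAs. The iA level lay 1.46-fold below MEFs, just inside the threshold. Notch1 and Notch2 thus both had their highest value in pAs, while iAs were called above MEFs for Notch1 alone. For iAs minus pAs the log2 difference was -0.26 for Notch1 and -1.67 for Notch2.

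Notch3, a receptor known mainly from vascular smooth muscle and pericytes and itself a target of Notch signalling, was at 7.75 in iAs, 8.52 in pAs and 8.12 in MEFs. Against MEFs, neither iAs, which were 1.30-fold lower, nor pAs, which were 1.31-fold higher, passed the threshold, and iAs were 1.70-fold below pAs. Of the 10 markers of pericytes and smooth muscle, iAs had 3 above pAs and 2 below. Rgs5, a pericyte marker, was at 10.52 in iAs and below the median in pAs (5.96) and MEFs (6.42), and Cspg4 was at 10.72, 7.60 and 9.82 in iAs, pAs and MEFs. Acta2, at 11.42, 13.02 and 13.67, and Tagln, at 9.20, 11.67 and 12.32, were 3.03-fold and 5.55-fold below pAs in iAs. The part of such cells in the Notch3 values was not tested. Notch4, an endothelial receptor outside the 10, measured 7.66 on all 3 arrays, with no difference in any digit deposited.

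Jag1, a ligand of Notch receptors in many tissues, measured 10.92 in iAs, 7.80 in pAs and 9.96 in MEFs. It was 1.94-fold above MEFs in iAs, 4.48-fold below MEFs in pAs and 8.69-fold above pAs in iAs. The iA array was thus the highest and the pA array the lowest, and Jag1 was the 1 gene of the 10 called in all 3 comparisons. Among all named genes, 175 were higher in iAs than in pAs by at least as much, and 415 were lower in pAs than in MEFs by at least as much. Of the 12 fibroblast markers, 9 were above pAs in iAs and 2 below. Those above included Postn, at least 43.6-fold, and Pdgfra, 11.2-fold, and also Fap, which lay below the median on both arrays. Of the 10 markers of pericytes and smooth muscle, 3 were above and 2 below. Relative to MEFs, where Jag1 was higher in iAs, 1 of the 12 fibroblast markers was higher in iAs and 10 were lower. Of the 10 pericyte and smooth muscle markers, 2 were higher and 6 lower in that comparison. The iAs had been sorted for GFP, and the part of such cells in the Jag1 values was not tested.

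Dll1, a Delta-like ligand, was at 6.88 in iAs, 6.97 in pAs and 6.84 in MEFs, and its log2 differences stayed between -0.09 and 0.14. Its 2 probe sets did not behave alike. One held 6.41 on all 3 arrays, and the other held 7.35 in iAs, 7.54 in pAs and 7.27 in MEFs. The remaining ligands showed little. Jag2 was at 6.84 in iAs and 6.66 in both pAs and MEFs, and Dll3 (5.54) and Dll4 (6.02) had equal values on the 3 arrays, both below the medians. Of the 5 canonical ligands, Jag1 was the 1 called in any comparison. Across all 22180 named genes, 7107 were called in at least 1.

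**Figure D2:**
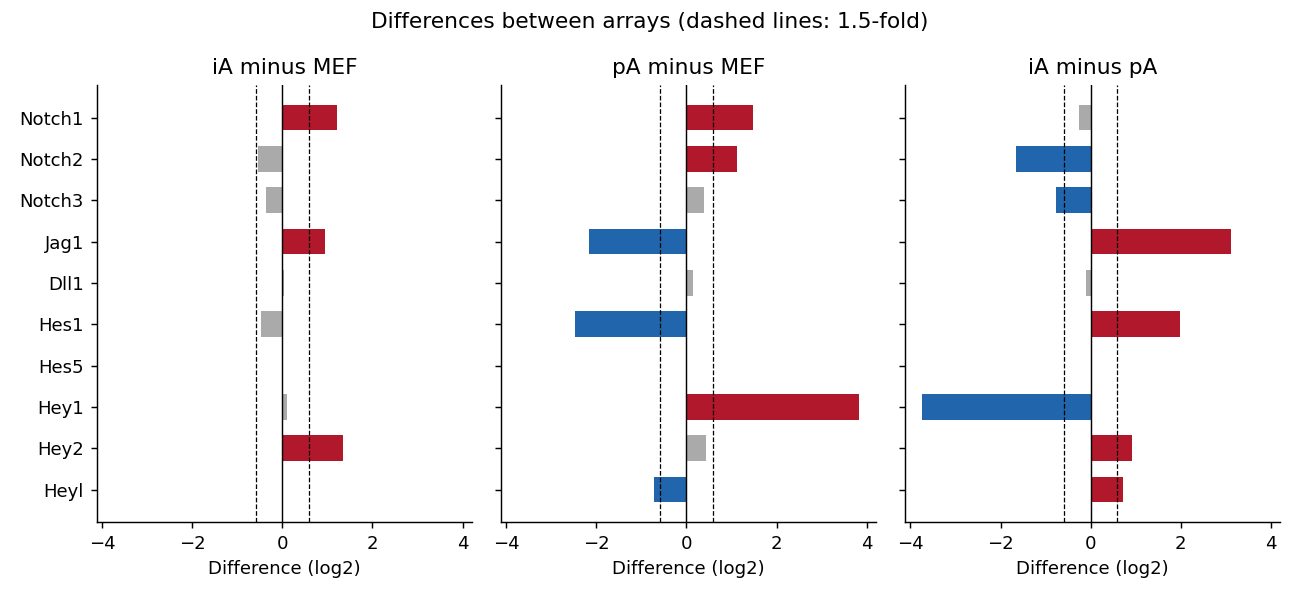
Log2 differences (x axes) of the 10 genes (y axis) in the 3 comparisons between arrays, with red bars for genes at least 1.5-fold higher, blue for at least 1.5-fold lower, grey for the rest and dashed lines at 1.5-fold. The bars of Jag1 and Hes1 point down for pAs minus MEFs and up for iAs minus pAs, and those of Hey1 point the other way, at 3.84 and -3.75.

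The target genes did not follow 1 pattern. Hes1, a repressor that many signals besides Notch induce, measured 10.19 in iAs, 8.20 in pAs and 10.67 in MEFs. The pA array was the low one, 5.56-fold below MEFs, and iAs were 3.97-fold above pAs and within 1.40-fold of MEFs. Across all named genes, 312 were lower in pAs than in MEFs by at least as much. Hes1 was thus lowest on the array on which Notch1, Notch2 and Notch3 had their highest values.

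Hey1, a repressor of the same family and a target in neural and vascular cells, measured 7.96 in iAs, 11.71 in pAs and 7.87 in MEFs. It was 14.3-fold above MEFs in pAs and 13.4-fold below pAs in iAs, while iAs and MEFs lay within 1.07-fold. These were the widest differences among the 10 genes. Of the 22180 named genes, 62 were higher in pAs than in MEFs by at least as much, and 71 were lower in iAs than in pAs by at least as much. In pAs, 10 of 12 astrocyte markers and 6 of 7 neural progenitor markers were also higher than in MEFs, and the part of such cells in the Hey1 level was not tested.

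Hey2, known from the heart and arteries, measured 8.89 in iAs, 7.96 in pAs and 7.54 in MEFs. The iA array was the high one, 2.56-fold above MEFs and 1.91-fold above pAs, and pAs lay within 1.34-fold of MEFs. Hey1 and Hey2 therefore peaked in different cell types, Hey1 in pAs and Hey2 in iAs. Among 10 endothelial markers, 1 was higher in iAs than in MEFs (Kdr, at 8.79 in iAs and 7.50 in MEFs) and 2 were lower, and Cldn5, Esam, Tek and Tie1 lay below the median on all 3 arrays. The promoter of Hey2 printed above holds the Rbpj motif on both strands, as does that of Hes5. A link between the motif and the Hey2 level was not tested.

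Heyl, found in smooth muscle and neural tissue, measured 7.77 in iAs, 7.06 in pAs and 7.77 in MEFs, with the iA and MEF values equal in every digit deposited. It was 1.64-fold lower in pAs than in either. The Heyl value in pAs was low, as were those of Hes1 and Jag1. In pAs 11 of 12 fibroblast markers and 8 of 10 markers of pericytes and smooth muscle were below MEFs as well, and their part in these 3 low values was not tested.

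Hes5, a target closely tied to Notch signalling in neural progenitors and glia, measured 7.03 on all 3 arrays. Its 2 probe sets, at 6.48 and 7.58, each held the same value on the 3 arrays in every digit deposited. Such equal values were common in the deposited table. Of the 23521 probe sets with 1 symbol, 4934 (21.0%) had the same value on all 3 arrays, and the share fell from 44.0% in the dimmest decile by mean level to 1.91% in the brightest. The Hes5 probe sets lay in the fourth and the sixth deciles, where 30.0% and 11.1% were equal, and the equal Dll1 probe set lay in the fourth. Equal values in iAs and MEFs, as for Heyl, were found for 30.8% of probe sets over all levels. The Heyl probe set lay in the sixth decile, and the share for that pair of arrays was not taken by decile. The step that produced equal values was not tested. An equal value shows that the table holds no difference for that probe set and does not show that the RNA was at 1 level, so the printed Hes5 promoter cannot be read beside any measured difference.

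**Figure D3:**
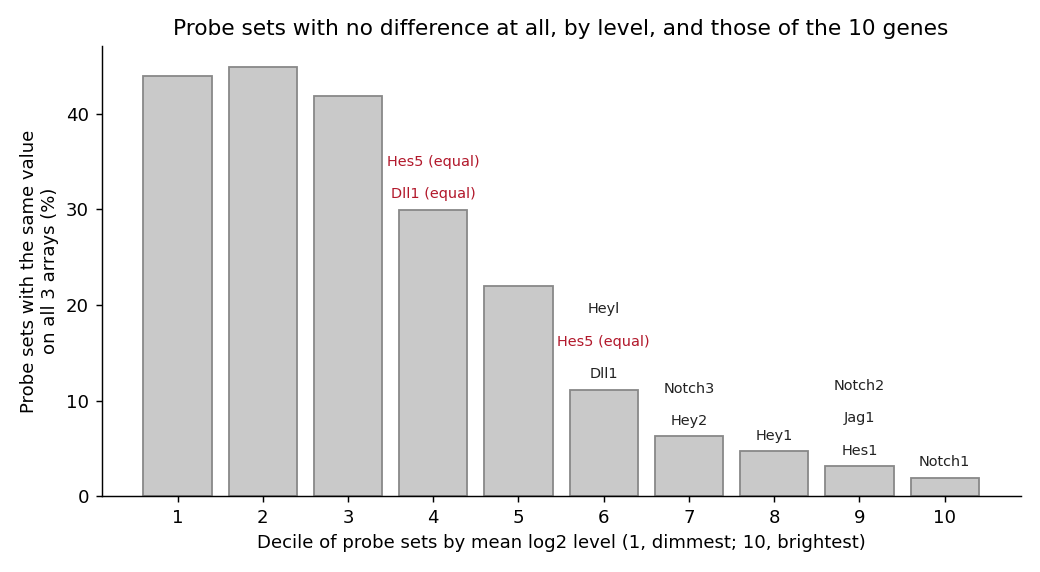
Share of probe sets with 1 symbol whose value was the same on all 3 arrays (y axis, percent) in each decile of probe sets by mean log2 level (x axis), with the names of the 10 genes over the deciles that hold their 12 probe sets, in red where the value was equal. The share falls from 44.0% to 1.91%, and the equal probe sets of Hes5 and Dll1 lie in the fourth and the sixth deciles.

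The other genes of the Hes and Hey family were read beside these 5 targets. Of the 12 measured, which include the 5 targets, iAs had 1 above MEFs and 1 below. In pAs 2 were above MEFs and 2 below, and in iAs 3 were above pAs and 3 below. That is 16.7%, 33.3% and 50% called, beside 18.9%, 23% and 19.8% of all named genes. Of the named genes that reached the median on at least 1 array, 27.4%, 33.7% and 28.7% were called. Outside the 5 targets, Bhlhe40 and Bhlhe41 were the only genes called. Bhlhe41, a repressor of the circadian clock, was at 8.29 in iAs, 9.67 in pAs and 7.81 in MEFs, 3.63-fold above MEFs in pAs. Its relative Bhlhe40 was at 10.03, 10.79 and 11.28 and was 2.37-fold below MEFs in iAs. The pair thus had different orders across the arrays. Hes7, a gene of the segmentation clock, was at 7.31, 7.88 and 7.30, with a log2 difference of 0.58 for pAs minus MEFs that did not reach the threshold. Hes6 stayed between 8.03 and 8.23, and Hes2 (6.59, 6.55 and 6.59 in iAs, pAs and MEFs), Hes3 and Helt had differences of no more than 0.09. Hes3 and Helt lay below the medians on all 3 arrays, and Hes2 lay below the median in pAs.

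The wider pathway was read from 13 lists that held 119 genes, of which 112 were measured, the 10 genes included. In iAs 11 were higher and 15 lower than in MEFs, which is 9.82% and 13.4% of the 112. In pAs 27 were higher and 17 lower than in MEFs (24.1% and 15.2%), and in iAs 14 were higher and 22 lower than in pAs (12.5% and 19.6%). The shares among all named genes were 8.84% and 10%, 12% and 11%, and 8.67% and 11.1%, and the median difference of the 112 genes was 0 in each comparison. Counted in both directions, 23.2%, 39.3% and 32.1% of the 112 were called. Among the 14476 named genes that reached the median on at least 1 array, the shares called were 27.4%, 33.7% and 28.7%. Without the 10 genes the counts were 8 and 15, 24 and 14, and 10 and 19 of 102. The 24 higher in pAs and the 19 lower in iAs than in pAs still include all 5 genes of the glial list. Of these, Gfap, Slc1a3 and Sox9 are also astrocyte markers.

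**Figure D4:**
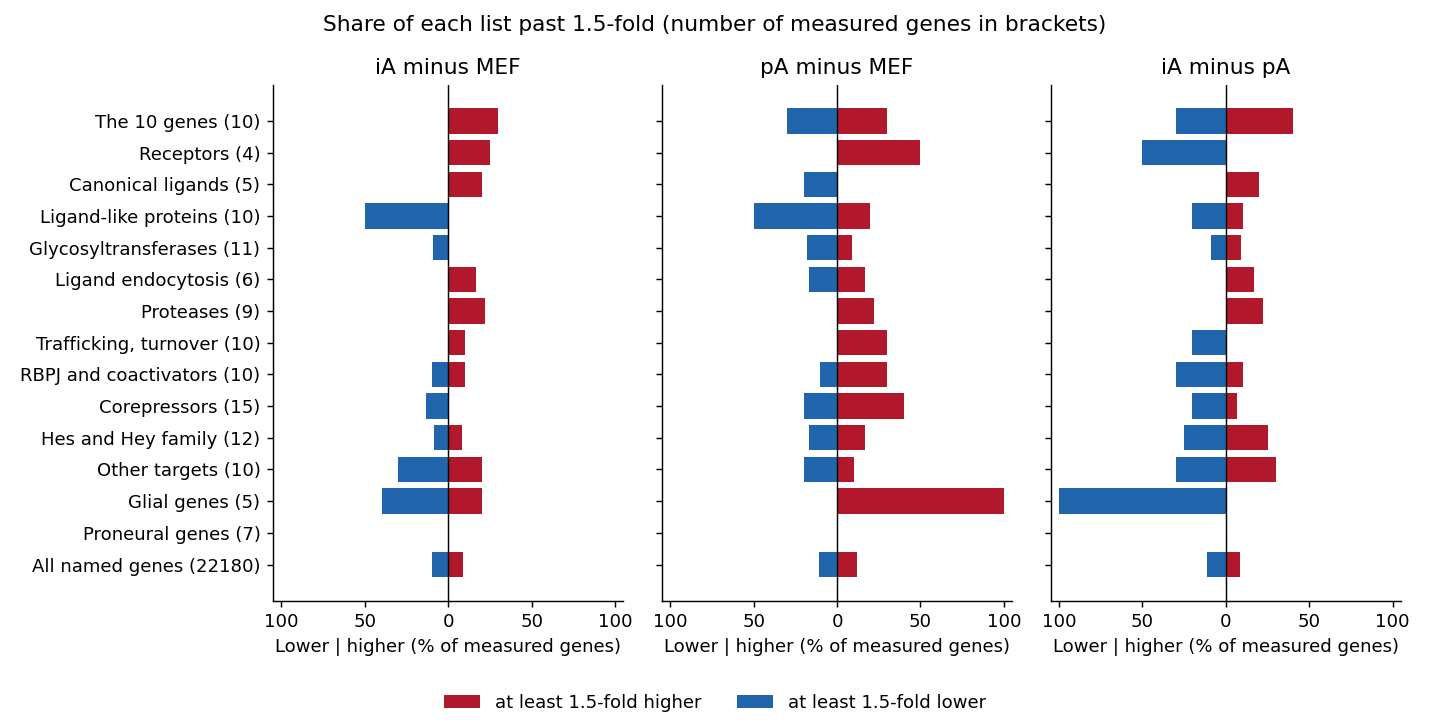
Percent of the measured genes of each list (y axis, number measured in brackets) at least 1.5-fold higher (red, to the right) or lower (blue, to the left) in each comparison. The glial genes are all higher in pAs than in MEFs and all below pAs in iAs, no proneural gene is called, and all named genes stand at the bottom.

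Upstream of the receptors, the ligand-like and modulating extracellular proteins held the most lower calls, 5 of 10 in iAs and 5 of 10 in pAs relative to MEFs. The shares of all named genes that were lower were 10% and 11%, and 14.8% and 16.1% of those that reached the median on at least 1 array. Thbs2, a thrombospondin of the matrix, was at 9.73 in iAs, 9.74 in pAs and 12.94 in MEFs, which put iAs 9.23-fold and pAs 9.20-fold below MEFs. Mfap2 and Mfap5, which belong to elastic microfibrils, stood 7.05-fold and 5.07-fold below MEFs in iAs, and 6.20-fold and 8.19-fold below in pAs. Dlk1, a membrane protein related to Delta that marks immature mesenchymal cells, was 6.59-fold below MEFs in iAs, and 5.87-fold in pAs. Thbs2, Mfap2 and Mfap5 are also matrix genes of fibroblasts, and 10 of 12 fibroblast markers in iAs and 11 in pAs were lower than in MEFs as well. The part of the fibroblast programme in these counts was not tested.

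Against that direction, Dner, a neural membrane protein with repeats like those of Notch ligands, was at 7.83 in iAs, 10.53 in pAs and 7.50 in MEFs. It was 8.20-fold above MEFs in pAs and 6.50-fold below pAs in iAs. Cntn1, a contactin of neural cells described as a Notch ligand, was at 6.50, 8.91 and 6.69, 4.66-fold above MEFs in pAs and at least 4.99-fold below pAs in iAs. In both genes pAs were the high array, as in Hey1.

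The sugars added to the receptors' extracellular repeats set which ligands they answer. Of 11 glycosyltransferases, 1 was lower in iAs than in MEFs, which was the xylosyltransferase Gxylt2 (5.19-fold). That is 9.09%, beside 10% of all named genes. Lfng, the fringe enzyme best known from progenitors and the segmentation clock, was at 9.81 in iAs, 10.34 in pAs and 9.57 in MEFs and was 1.71-fold higher in pAs. Mfng was at 6.81 on all 3 arrays and Rfng at 8.65, 8.75 and 8.65. The glucosyltransferases Poglut2 and Poglut3 were 1.59-fold and 2.69-fold below MEFs in pAs, and Poglut1, Pofut1, Gxylt1, Xxylt1 and Eogt stayed within the threshold in each comparison.

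Ligands must be taken up by their own cell to pull on a receptor. In that group of 6 genes, the epsin Epn2 was at 9.95 in iAs, 9.88 in pAs and 8.71 in MEFs, 2.36-fold and 2.26-fold higher than in MEFs. Neurl1a, a ubiquitin ligase, was at 8.53, 7.57 and 8.22 and was 1.57-fold below MEFs in pAs. The ubiquitin ligases Mib1 and Mib2 stayed within the threshold.

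Adam10, which makes the first ligand-dependent cut in the receptor, was at 12.60 in iAs, 10.64 in pAs and 11.16 in MEFs. It was 2.71-fold above MEFs in iAs and 3.89-fold higher than in pAs, and its order of the arrays, iAs, MEFs, pAs, was that of Jag1. Of 9 proteases measured, 2 (22.2%) were higher and 0 lower in each comparison. Between iAs and MEFs, pAs and MEFs, and iAs and pAs, 18.9%, 23% and 19.8% of all named genes were called. Ncstn, a gamma-secretase subunit, was at 11.70, 10.82 and 11.17 and was 1.84-fold above pAs in iAs. Psen2, a catalytic subunit, lay 1.51-fold above MEFs in both iAs and pAs, just past the threshold, and Aph1c was 1.61-fold higher in pAs.

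Dtx4, of the Deltex ubiquitin ligases that act on receptor trafficking, was at 10.85 in iAs, 10.57 in pAs and 8.61 in MEFs. Relative to MEFs that was 4.72-fold higher in iAs, and 3.87-fold in pAs. Dtx1 and Dtx3 were 1.86-fold and 2.15-fold above MEFs in pAs, and 2.02-fold and 1.84-fold below pAs in iAs. Numb, an inhibitor of Notch, had log2 differences of 0.55 in iAs and 0.45 in pAs, and Numbl had -0.56 and -0.49, none of which reached the threshold.

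In the nucleus, Rbpj was at 8.21 in iAs, 8.64 in pAs and 8.63 in MEFs and was not called in any comparison. The coactivators of the Mastermind family differed among themselves. Maml3 was at 10.08 in iAs, 8.09 in pAs and 7.92 in MEFs, 4.47-fold above MEFs in iAs. Maml2 was at 10.19, 11.14 and 10.20, 1.92-fold higher in pAs. Maml1 lay 1.55-fold below MEFs in iAs and 1.58-fold below them in pAs. Thus 1 family member was high in iAs, 1 in pAs and 1 in MEFs. Among other coactivators, the acetyltransferase Kat2b was at 8.83, 9.76 and 8.36 and Snw1 at 8.83, 10.05 and 9.16, which put pAs 2.65-fold and 1.85-fold above MEFs.

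Of 15 corepressors measured, iAs had 0 above MEFs and 2 below, and pAs had 6 above and 3 below. That is 13.3% called in iAs and 60% in pAs, beside 18.9% and 23% of all named genes. Of the named genes that reached the median on at least 1 array, 27.4% and 33.7% were called. Fhl1, a LIM-domain protein with an isoform that binds Rbpj, was at 8.07 in iAs, 10.74 in pAs and 9.58 in MEFs. Fhl1 thus lay 2.84-fold below MEFs in iAs but 2.23-fold above them in pAs, and the values do not separate its isoforms. Tle4, a Groucho corepressor recruited by Hes proteins, was 2.53-fold higher in pAs, and Tle3 and Spen were 1.78-fold and 1.79-fold higher. Tle2 went the other way, at 8.17 in iAs, 6.66 in pAs and 7.70 in MEFs, which put pAs 2.06-fold below MEFs. Hdac2, a histone deacetylase, was at 10.03 in both iAs and pAs and at 10.72 in MEFs, a 1.61-fold difference.

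**Figure D5:**
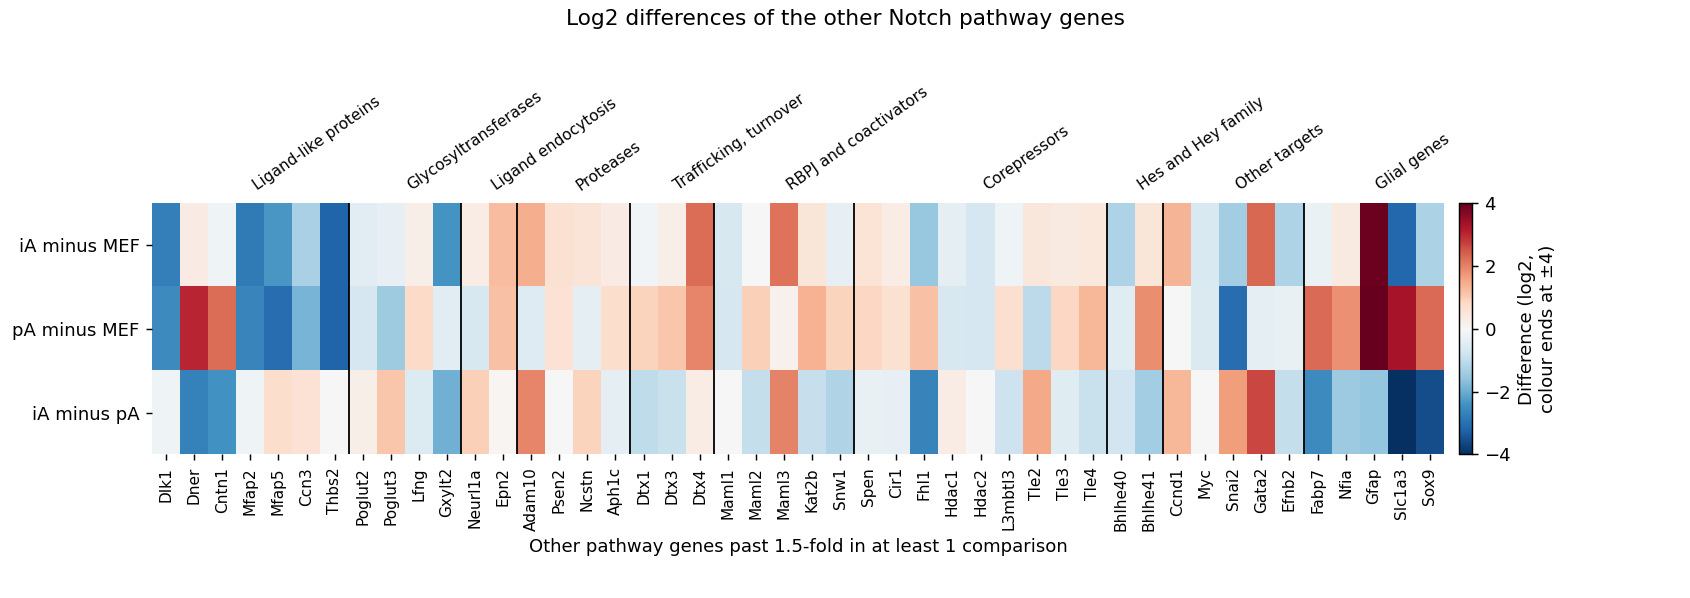
Log2 differences (colour, red higher and blue lower, ending at 4 in either direction) of the pathway genes outside the 10 that differed by at least 1.5-fold in at least 1 comparison (columns, grouped by list), with a row for each comparison. Thbs2 is blue in both comparisons with MEFs, Dtx4 is red in both, and Fhl1, Slc1a3 and Sox9 change colour between them.

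Among 10 genes described as Notch targets in other tissues, iAs had 2 above MEFs and 3 below, and Notch3 and Dtx1 in this list were described above. Thus 50% were called in that comparison, beside 18.9% of all named genes and 27.4% of those that reached the median on at least 1 array. Gata2, a transcription factor of blood and neural precursors, was at 10.62 in iAs, 7.94 in pAs and 8.33 in MEFs, 4.90-fold above MEFs in iAs and 6.40-fold higher than in pAs. Ccnd1, which encodes cyclin D1, was at 13.16, 11.83 and 11.80, 2.56-fold above MEFs in iAs. Both had the iA array high, like Hey2. Snai2, a mesenchymal repressor, lay 2.63-fold below MEFs in iAs and 8.34-fold below them in pAs, and Efnb2, an arterial ephrin, was 2.35-fold lower in iAs. Nrarp, a feedback inhibitor that answers Notch in many tissues, was at 7.19 on all 3 arrays, another equal value.

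The glial genes placed downstream of Notch in neural precursors split the astrocyte arrays. In pAs all 5 stood above MEFs, and in iAs all 5 stood below pAs, where all named genes gave 12% and 11.1%. Fabp7, a lipid-binding protein of radial glia that Notch is known to induce, was at 9.89 in iAs, 12.43 in pAs and 10.16 in MEFs, 4.84-fold above MEFs in pAs and 5.85-fold below pAs in iAs. Nfia, a gliogenic transcription factor, was at 10.19, 11.65 and 9.82, 3.55-fold higher in pAs. Sox9, also gliogenic, was at 9.06, 12.60 and 10.33, which put iAs 2.41-fold below MEFs and pAs 4.84-fold above. Slc1a3, the glutamate transporter GLAST, was at 5.88, 12.32 and 9.02, which put iAs at least 5.39-fold below MEFs and pAs 9.84-fold above. Gfap was the 1 glial gene higher in iAs than in MEFs (15.1-fold), and its promoter drove the reporter by which iAs were sorted. Gfap, Slc1a3 and Sox9 are also among the 12 astrocyte markers, so these counts are not a second reading beside them.

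None of the 7 measured proneural genes, which Hes factors are known to repress, differed by 1.5-fold in any comparison. Of all 22180 named genes, 15073 were likewise called in no comparison. Neurog2 was at 7.42 in iAs and pAs and 7.47 in MEFs, and Neurod1, Neurod4 and Neurog1 lay below the median on all 3 arrays. The log2 differences of the group ranged from -0.27 to 0.22. In iAs 7 of 11 neuron markers were higher than in MEFs, among them Snap25 at 11.62 against 6.60, and 0 were lower. Tubb3, Rbfox3, Dcx and Elavl3 did not pass, and Nefm and Elavl4, which were below the median in MEFs, exceeded that median in iAs by 1.14-fold and 1.11-fold. Among all named genes 8.84% were higher in that comparison.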

How the data were processed

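RNA of 3 samples, 1 each of iAs, pAs and MEFs, was measured on Affymetrix Mouse Gene 2.0 ST arrays. The values deposited by the authors are log2 signals of probe sets after RMA in Partek Genomics Suite, for which no version was given in the sources used here, and the submitters' processing notes also name MAS5. No raw intensities were used, so background correction and probe summary could not be varied, and the precision is limited by 1 array per cell type.

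Probe sets were named through the platform annotation. Of 41345, 23521 had 1 symbol, 1820 had several and 16004 had none, and the probe sets of a gene were averaged. All 10 genes had Entrez identifiers whose RefSeq symbol is the same. Aes was read as Tle5. Of 119 listed pathway genes, 112 were measured, and the rest are not reported here.

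Differences between arrays were computed with Python 3.11.15, numpy 2.4.6, pandas 2.3.3 and matplotlib 3.10.9 and called at 1.5-fold, the threshold of the study's methods. The procedure was tested on simulated data with an assumed noise and without equal values. That test checks the calculation and cannot give the error of the calls made here. The 10 genes and the lists were chosen with earlier results of these data known. Named were the 10 genes, all measured receptors, canonical ligands, glycosyltransferases and Hes and Hey genes, and of each other list up to 4 called genes with the largest differences and the largest against the list's direction. Members within the threshold that help to read a list were added after their values were seen. The alternatives were quantile normalization, centring on the brighter probe sets, adding 32 on the linear scale, raising values to the array's median, a filter on dim genes, taking only the brightest probe set and other fold thresholds. Promoters were searched for 4 motifs. RT-PCR, staining and functional experiments have no array and were left out.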

Additional observations from a re-analysis of the deposited data

Results flagged for a closer look

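Jag1 was 0.96 higher in iAs than in MEFs and -2.16 relative to MEFs in pAs on the log2 scale, and it was picked out because the 2 cell types lay on opposite sides of MEFs. Among all 22180 named genes, 240 were called higher in iAs and lower in pAs, as Jag1 was, and 168 the reverse, as the next 3 genes were. The corepressor Fhl1 lay at -1.51 in iAs and 1.16 in pAs. Of the glial genes, Slc1a3 lay at -3.14 in iAs, where its level was below the array's median, and 3.30 in pAs, and Sox9 at -1.27 and 2.27. With 1 array per cell type these differences between iAs and pAs were not tested, and both use the same MEF array.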

How the results depend on the processing

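Of the 150 differences of single genes recomputed over 5 alternatives (quantile normalization, centring, an offset of 32, raising values to the array's median and the brightest probe set), 150 kept their side of the 1.5-fold threshold, and no called difference changed sign. The sign of 1 uncalled difference did, that of Dll1 for iAs minus MEFs, which went from 0.04 to -0.0041 under quantile normalization, and these settings moved the median of all named genes by at most 0.07. Some of the 150 could not move. For the 8 genes with 1 probe set, taking the brightest probe set changed nothing. Raising values to the median changed nothing for them either, since none lay below a median. The counts follow the fold threshold. At a looser threshold (0.32 on the log2 scale), 6 of the 10 genes were called between iAs and MEFs in place of 3, with 3 higher and 3 lower in place of 3 and 0, and 52 of the 112 pathway genes in place of 26. At 2-fold, 4 of the 10 genes were called between iAs and pAs in place of 7, and the pathway genes numbered 27 in place of 44 between pAs and MEFs and 23 in place of 36 between iAs and pAs. In a setting added after seeing the data, over the 17684 genes not equal on the 3 arrays, the share of genes called was 23.6% for iAs and MEFs, 28.9% for pAs and MEFs and 24.8% for iAs and pAs, beside 18.9%, 23% and 19.8% of all named genes. No paired analysis was possible because each group has 1 array. The spread between cultures is unknown, and the values carry no detection calls, so dim genes such as Dll1 and Hes5 are the least certain.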
